A study of Pan troglodytes with 8 samples.

Results

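Basal radial glia (bRG) were compared with apical radial glia (aRG), both sorted by fluorescence from chimpanzee (Pan troglodytes) cerebral organoids, which are spheres of neural tissue grown from pluripotent stem cells. The comparison rests on 4 of the 8 libraries of the series, 2 of bRG and 2 of aRG, and the other 4 hold BCL11B+ neurons (N) and basal intermediate progenitors (bIP), 2 of each. All 8 carry the label SandraA, a single induced pluripotent stem cell line, and were taken at week 8 of culture, give or take 3 days, with RNA of 10000 cells per library. No treatment separates the groups. A gene was taken as higher in bRG when both bRG libraries lay above both aRG libraries and bRG averaged at least 10 CPM (read counts scaled to library size), and as lower in bRG in the converse case. Of 11422 genes that averaged 10 CPM or more in bRG or aRG, 1293 (11.3%) were higher in bRG and 2165 (19% of the same 11422) were lower. In the other 7964 genes the libraries of the populations overlapped.

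Apical radial glia are the stem cells that line the ventricle of the developing brain. They hold an apical junctional belt at the ventricular surface and a long basal fibre, divide at that surface, and depend on Notch, Wnt and fibroblast growth factor signals. Basal radial glia have lost the apical attachment, keep a basal process that contacts extracellular matrix, divide away from the ventricle, and are abundant in the developing cortex of primates. Basal intermediate progenitors and neurons are the more committed descendants of both.

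The labels were checked against markers of each cell type. SOX2, a stem cell transcription factor, stood at 696 and 476 CPM in the bRG libraries and at 957 and 849 CPM in the aRG libraries, while the 4 N and bIP libraries held 11.7 to 83.0 CPM. Both sorted radial glia populations thus carried SOX2 well above the committed cells, and SOX2 was lower in both bRG libraries. PAX6, a factor of dorsal progenitors, was at 176 and 145 CPM in bRG and 227 and 158 CPM in aRG, which overlap. HOPX, a widely used bRG marker, went against its label, at 33.4 and 28.2 CPM in bRG and 41.9 and 49.7 CPM in aRG. PROM1, a protein of the apical membrane, was at 61.6 and 41.7 CPM in bRG and 64.0 and 62.6 CPM in aRG, an order that was lost in the counts on the human genome and with library totals. At the 10 CPM minimum, 0 of 7 bRG markers were higher in bRG and 2 were lower, and of 5 aRG markers 3 were lower in bRG. Below that minimum, the bRG marker MOXD1 was at 3.24 and 3.40 CPM in bRG and 1.93 and 1.30 CPM in aRG, above aRG in both bRG libraries. TNC, a matrix protein and bRG marker, overlapped at 51.9 and 163 CPM in bRG and 40.4 and 135 CPM in aRG. Their sums were 517 and 721 CPM in bRG and 593 and 754 CPM in aRG for the bRG markers, and 223 and 219 CPM in bRG and 270 and 295 CPM in aRG for the aRG markers. The sums of the aRG markers thus ran the way of the labels without overlap, and those of the bRG markers overlapped. The sums of 6 markers shared by all radial glia had the same order, at 2214 and 2035 CPM in bRG and 3168.5 and 3190.6 CPM in aRG. The order of the aRG markers was thus not particular to apical genes. Below, bRG and aRG are the names of the sorted populations.

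Among the 1293 genes higher in bRG, the population with the highest mean was N for 911 (70.5%), bRG for 242 (18.7%) and bIP for 140 (10.8%). The order rule keeps aRG from being highest in this set, and of the 7556 genes at 10 CPM whose highest mean was not in aRG, N was highest for 4835 (64.0%). Among the 2165 lower in bRG it was aRG for 1571 (72.6%), N for 353 (16.3%) and bIP for 241 (11.1%). Here the rule keeps bRG from being highest, and of the 10250 genes whose highest mean was not in bRG, aRG was highest for 3866 (37.7%). These shares describe genes chosen on the bRG and aRG levels and carry no test. Most differences were small. The median log2 fold change, bRG over aRG, was 0.42 for the genes higher in bRG, 185 of which passed 1 on the log2 scale, and −0.40 for the genes lower in bRG, 154 of which lay at −1 or below. Just inside the limit of 10 CPM stood LRRC7, at 8.06 and 12.0 CPM in bRG and 6.21 and 5.27 CPM in aRG, and PPP3CC, at 10.4 and 9.63 CPM in bRG and 9.27 and 9.39 CPM in aRG. Just outside stood XRCC3, at 7.58 and 6.58 CPM in bRG and 8.72 and 11.2 CPM in aRG, and SLC2A13, at 7.58 and 5.35 CPM in bRG and 8.33 and 11.6 CPM in aRG. XRCC3 overlaps the protein-coding loci KLC1 and LOC107968259.

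The split between higher and lower depended on how libraries were scaled. With the trimmed mean of M values (TMM) 37.4% of the non-overlapping genes were higher in bRG, with library totals 54.7% were (1897 higher and 1570 lower), and with DESeq2 size factors 32.6% (1153 higher and 2380 lower). List counts given below with library totals or DESeq2 size factors are to be set against these totals, since the shares of all genes moved as well. The 24 genes with the widest gaps kept their order with all 3 scalings. They were chosen for wide gaps, and the TMM factors of the 4 libraries ran only from 1.02 to 1.10. Scaling differences of this size could hardly reorder them, so this is no separate support. In the counts of the same libraries on the human genome, 1093 of the genes higher in bRG had a row and 986 (90.2%) kept the order, and 1897 of those lower in bRG had a row and 1555 (82.0%) kept it.

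By the quasi-likelihood test of edgeR, 1 of 35382 genes (0.00283%) passed an adjusted p of 0.05 between bRG and aRG, the choroid plexus transcript TTR. At an unadjusted p under 0.05 stood 1318 genes (3.73%), 907 higher (2.56%) and 411 lower (1.16%) in bRG, and DESeq2 called 118 of 26464 (0.446%), 91 higher (0.344%) and 27 lower (0.102%) in bRG. The edgeR count was 85 without bRG replicate 1 and 8 without aRG replicate 2. For every other gene below, higher or lower states the order of the 4 libraries only.

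The N and bIP libraries, which the choice of genes did not use, gave a second readout of the same genes. Their test came from the fit of all 8 libraries, so the spread of the bRG and aRG replicates also enters it. The calls are thus not fully independent of the choice of genes. Between N and bIP edgeR called 376 genes higher (1.06%) and 524 lower (1.48%) of 35382. Of the 1293 genes higher in bRG, 156 (12.1%) were called higher in N than in bIP and 6 (0.464%) lower, against 2.58% and 3.73% of the 11422 genes at 10 CPM. Of the 2165 genes lower in bRG, 233 (10.8%) were called lower in N than in bIP and 9 (0.416%) higher. Outside the lists of mitosis, DNA replication, general neuronal and choroid plexus genes the shares were similar, at 11.5% called higher and 0.406% lower of 1231 genes higher in bRG (2.46% and 3.25% of all 11118 such genes), and 8.87% called lower and 0.446% higher of 2019 genes lower in bRG. Without bIP replicate 2 these counts were 50 (3.87%, against 0.762% of all genes at 10 CPM) and 148 (6.84%, against 2.30%), and without N replicate 2 they were 99 (7.66%, against 1.40%) and 145 (6.70%, against 2.22%). The median log2 fold change, N over bIP, was 0.48 for the genes higher in bRG, −0.14 for those lower in bRG and 0.14 for all.

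**Figure D1:**
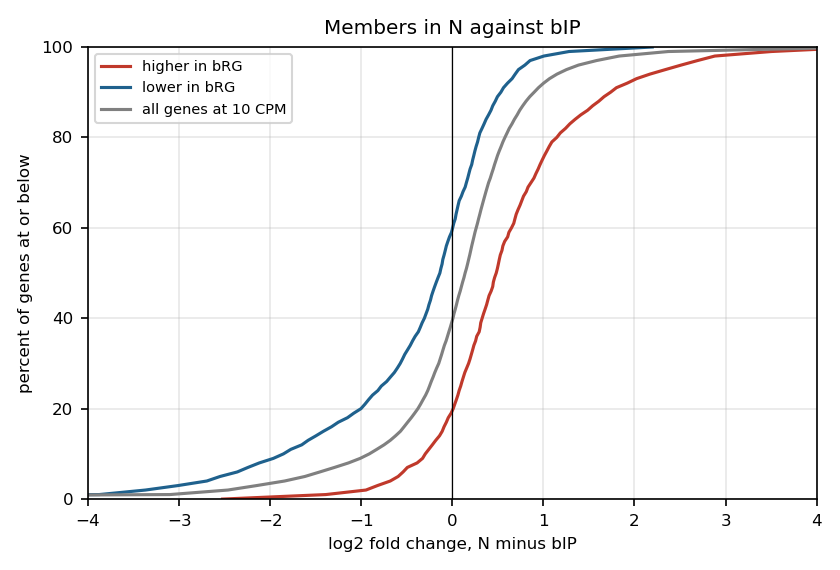
Cumulative percent of genes (vertical axis) at or below a log2 fold change of N over bIP (horizontal axis), for the genes higher in bRG, the genes lower in bRG and all genes at 10 CPM or more. The curve of the genes higher in bRG lies to the right (median 0.48) and that of the genes lower in bRG to the left (median −0.14) of all genes (0.14).

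Outside those lists, the 12 genes with the widest gap above aRG were PTPRN, CARTPT, ELMOD1, NHLH2, FXYD7, DIRAS3, SYT3, GRIK3, FABP3, CELF6, SLITRK1 and PCDH17. They include genes of secretory granules, synapses and neuronal membranes, and 10 of the 12 were called higher in N than in bIP (all but CARTPT and NHLH2). That call was made for 12.1% of the 1293 genes higher in bRG and for 2.58% of the 11422 genes at 10 CPM. The 12 were chosen for wide gaps, and the calls share a fit with the bRG and aRG libraries. PTPRN, a membrane protein of dense-core secretory granules, was at 25.8 and 48.7 CPM in bRG, 3.38 and 6.68 CPM in aRG, 179 and 141 CPM in N and 27.0 and 27.1 CPM in bIP. Its bRG libraries thus stood near the bIP level and far below N, and its log2 fold change over aRG was 2.88 (SE 0.40). CARTPT, the precursor of the neuropeptide CART, was at 7.90 and 13.8 CPM in bRG and 0.236 and 1.68 CPM in aRG. CHGA, a granule protein of the general neuronal list, was at 13.0 and 32.4 CPM in bRG and 1.02 and 3.00 CPM in aRG. These 3 granule or peptide transcripts were low in both aRG libraries, and DESeq2 called each of them (adjusted p = 5.7e-08, 0.000347 and 1.15e-07) where edgeR did not.

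SYT3, a synaptotagmin that senses calcium, was at 22.7 and 54.8 CPM in bRG and 9.07 and 7.74 CPM in aRG. GRIK3, a kainate receptor subunit, was at 16.9 and 60.6 CPM in bRG and 3.54 and 6.92 CPM in aRG, and SLITRK1, a synaptic adhesion protein, at 40.1 and 89.5 CPM in bRG and 3.97 and 18.3 CPM in aRG. For each of the 3, bRG replicate 2 was the higher of the pair by more than 2-fold. SCN2A, a neuronal sodium channel, was at 55.5 and 75.6 CPM in bRG and 16.8 and 18.8 CPM in aRG, and CALB2, the calcium-binding protein calretinin, at 53.1 and 152 CPM in bRG and 12.7 and 26.3 CPM in aRG. CALB2 was also called higher in N, at 334 and 375 CPM, than in bIP, at 34.8 and 15.6 CPM (edgeR adjusted p = 0.00346), so its bRG level lay above both bIP libraries.

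Other genes of the 12 differed less between the bRG replicates. DIRAS3, an imprinted small GTPase, was at 36.7 and 34.0 CPM in bRG and 6.64 and 13.9 CPM in aRG. FABP3, a fatty acid carrier, was at 98.3 and 92.3 CPM in bRG and 41.4 and 37.5 CPM in aRG, and PCDH17, a protocadherin, at 31.8 and 36.9 CPM in bRG and 14.1 and 15.1 CPM in aRG. NHLH2, a neuronal bHLH transcription factor, was at 12.6 and 12.1 CPM in bRG and 2.51 and 4.00 CPM in aRG. In these 4 genes the bRG replicates were closer to each other than to either aRG library. Reads of FXYD7, SYT3 and FABP3 could include those of an overlapping gene (FXYD1, C19H19orf81 and ZCCHC17), since the libraries do not mark strand.

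**Figure D2:**
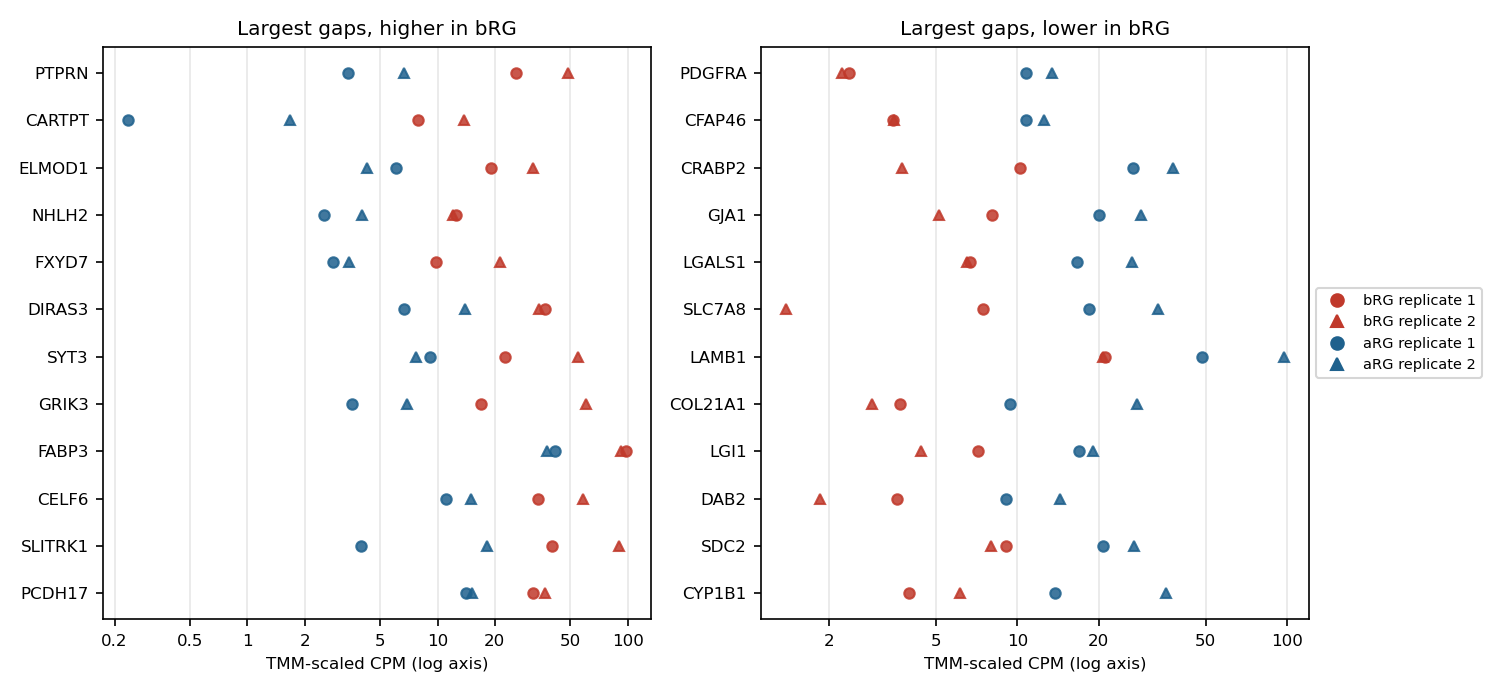
TMM-scaled CPM on a log axis for the 12 genes with the widest gap above aRG (left) and below aRG (right), with 1 point per library (red bRG, blue aRG; circles replicate 1, triangles replicate 2). In each gene the 2 bRG points lie on one side of the 2 aRG points; PTPRN stands at 25.8 and 48.7 CPM in bRG against 3.38 and 6.68 CPM in aRG, and PDGFRA at 2.36 and 2.23 CPM in bRG against 10.8 and 13.4 CPM in aRG.

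Of 103 general neuronal genes at 10 CPM, 60 (58.3%) were higher and 1 was lower in bRG, beside 11.3% and 19% of all genes, and edgeR called 0. Their median log2 fold change was 0.81 over 115 tested members (0.63 within libraries numbered 1 and 0.96 within those numbered 2), against 0.02 over all genes, and it was 0.39 without bRG replicate 2. Of 20 genes of deep-layer neurons 6 were higher and 2 lower. TBR1, a T-box factor of deep layers, was at 50.2 and 109 CPM in bRG and 15.0 and 37.9 CPM in aRG, and ZEB2, a regulator of neuronal differentiation, at 74.7 and 121 CPM in bRG and 39.6 and 57.9 CPM in aRG. BCL11B itself overlapped, at 58.9 and 113 CPM in bRG and 42.8 and 73.8 CPM in aRG. The median of the deep-layer list was 0.35 and was −0.04 without bRG replicate 2. The summed level of 5 neuron markers was 443 and 924 CPM in bRG and 188 and 397 CPM in aRG. In N it was 4240 and 3433 CPM, and in bIP 1830 and 1943 CPM. Of these markers TBR1, NEUROD6, STMN2 and RBFOX3 are among the list members higher in bRG, so the sum is no separate readout. In sorted bulk samples a few neurons among the bRG cells and a low neuronal transcript level in each bRG cell cannot be told apart.

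Few genes reached their highest level in bRG. Of 12399 genes at 10 CPM in any population, 111 (0.895%) had both bRG libraries above the other 6, against 1184 (9.55%) for aRG, 2872 (23.2%) for N and 561 (4.52%) for bIP. For bRG 66 of the 90 with a human genome row kept this order, and the median gap to the highest other library was 0.09 on the log2 scale, against 0.18 for aRG. A gap of at least 0.5 was reached by 1 gene in bRG and by 166 genes in aRG. That gene was CGN, which encodes cingulin of the tight junction plaque, at 20.6 and 21.5 CPM in bRG, 14.3 and 13.3 CPM in aRG, 6.02 and 3.79 CPM in N and 13.8 and 6.33 CPM in bIP. The count for bRG was 1005 without bRG replicate 2, 551 without bRG replicate 1, 386 without aRG replicate 2 and 258 without aRG replicate 1, and 320 with library totals.

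Narrower gaps were found in the other 7 genes named for bRG. RIPK1, a kinase of cell death and inflammatory signalling, was at 10.8 and 10.3 CPM in bRG, 5.22 and 5.33 CPM in aRG and 2.95 to 7.34 CPM in the 4 other libraries. BAK1, a mitochondrial effector of apoptosis, was at 16.6 and 15.8 CPM in bRG, 9.39 and 12.0 CPM in aRG and 5.43 to 9.77 CPM elsewhere. SPR, the last enzyme of tetrahydrobiopterin synthesis, was at 10.3 and 13.0 CPM in bRG and 2.28 and 5.86 CPM in aRG. In these genes the bRG replicates lay close together and stood little above the next library. SLC2A8, a sugar transporter, was at 42.1 and 39.5 CPM in bRG and 27.3 and 31.4 CPM in aRG, and SLC7A7, an amino acid transporter subunit, at 15.7 and 13.4 CPM in bRG and 10.1 and 10.2 CPM in aRG. GALNT15, which starts O-linked glycans, was at 10.5 and 10.1 CPM in bRG and 4.32 and 7.89 CPM in aRG, and TMEM79 at 12.7 and 13.2 CPM in bRG and 4.48 and 9.51 CPM in aRG. SLC2A8, SLC7A7 and TMEM79 each overlap another protein-coding gene.

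**Figure D3:**
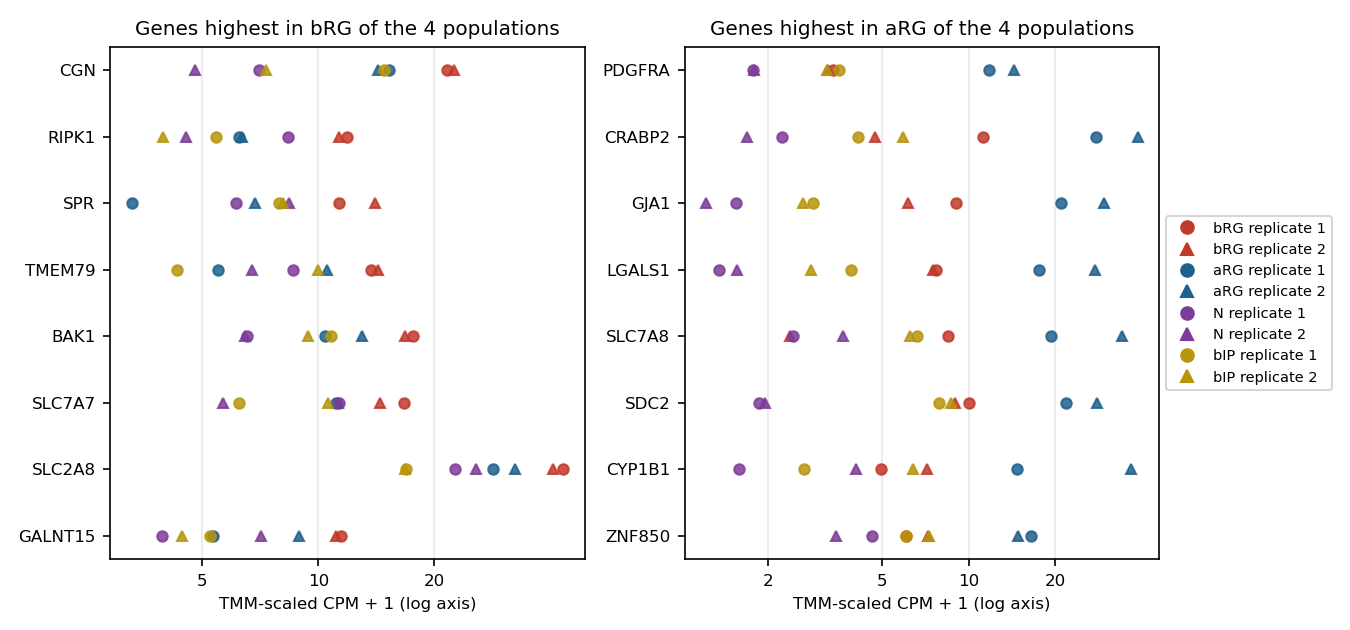
TMM-scaled CPM plus 1 on a log axis in all 8 libraries for the 8 genes with the widest gap above the other populations in bRG (left) and in aRG (right), coloured by population (circles replicate 1, triangles replicate 2). The gaps of the bRG genes are narrow, as for CGN at 20.6 and 21.5 CPM in bRG against 14.3 and 13.3 CPM in aRG, and those of the aRG genes are wide, as for GJA1 at 8.06 and 5.13 CPM in bRG against 20.0 and 28.6 CPM in aRG.

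The 12 genes with the widest gap below aRG were PDGFRA, CFAP46, CRABP2, GJA1, LGALS1, SLC7A8, LAMB1, COL21A1, LGI1, DAB2, SDC2 and CYP1B1. Growth factor, matrix and retinoid genes stand among them. PDGFRA, the receptor for platelet-derived growth factor A, was at 2.36 and 2.23 CPM in bRG and 10.8 and 13.4 CPM in aRG. Its level in bRG was near that in bIP, at 2.52 and 2.20 CPM, and its log2 fold change was −2.39 (SE 0.56, DESeq2 adjusted p = 0.00554, not called by edgeR). PDGFRA is also a marker of oligodendrocyte precursors and mesenchyme. OLIG1 and OLIG2, which define oligodendrocyte precursors, were at or below 1.06 CPM in the 4 bRG and aRG libraries, and SOX10 had the order of PDGFRA, at 1.78 and 1.26 CPM in bRG and 2.24 and 3.12 CPM in aRG. The mesenchyme markers LUM, at 3.08 and 3.27 CPM in bRG and 4.24 and 19.9 CPM in aRG, and DCN, at 2.20 and 7.87 CPM in bRG and 10.7 and 50.3 CPM in aRG, were also lower in both bRG libraries. The part of such cells in the PDGFRA difference was not tested.

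CRABP2, which carries retinoic acid to the nucleus, was at 10.2 and 3.71 CPM in bRG and 26.8 and 37.8 CPM in aRG, and CYP1B1, an enzyme that can form retinoic acid, at 3.95 and 6.14 CPM in bRG and 13.8 and 35.7 CPM in aRG. Both were also highest in aRG of the 4 populations, and reads of CYP1B1 could include RMDN2. SLC7A8, a transporter of large neutral amino acids, was at 7.45 and 1.38 CPM in bRG and 18.4 and 33.4 CPM in aRG. DAB2, an endocytic adaptor, was at 3.56 and 1.86 CPM in bRG and 9.04 and 14.4 CPM in aRG, and LGI1, a secreted synaptic protein, at 7.12 and 4.37 CPM in bRG and 16.9 and 19.1 CPM in aRG. CFAP46, a protein of motile cilia, was at 3.46 and 3.49 CPM in bRG and 10.7 and 12.5 CPM in aRG, while the summed level of 4 multiciliated cell markers was 15.5 and 20.1 CPM in bRG and 32.8 and 29.2 CPM in aRG.

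Genes of the extracellular matrix and its receptors were more often lower than higher in bRG. Of 65 at 10 CPM, 30 (46.2%) were lower and 1 was higher, beside 19% and 11.3% of all genes, edgeR called 0, and the median log2 fold change was −0.39 over 82 tested members (−0.25 and −0.40 within libraries numbered 1 and 2). LAMB1, a laminin chain of basement membranes, was at 21.2 and 20.8 CPM in bRG and 48.4 and 97.8 CPM in aRG, and the N and bIP libraries, at 38.2 to 50.0 CPM, also lay above bRG. LGALS1, a secreted galectin, was at 6.67 and 6.51 CPM in bRG and 16.7 and 26.6 CPM in aRG. SDC2, a heparan sulphate proteoglycan, was at 9.04 and 7.96 CPM in bRG and 20.8 and 27.0 CPM in aRG. Both LGALS1 and SDC2 were called lower in N than in bIP (edgeR adjusted p = 0.0454 and 0.00434). COL21A1, a collagen outside the list, was at 3.66 and 2.90 CPM in bRG and 9.35 and 27.8 CPM in aRG. The one gene of the list that was higher in bRG was TNR, tenascin-R of neuronal perineuronal nets, at 14.1 and 50.0 CPM in bRG, 4.79 and 11.4 CPM in aRG and 75.8 and 286 CPM in N.

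Mesenchymal and choroid plexus transcripts moved with these matrix genes, and aRG replicate 2 held most of them. The summed level of 5 mesenchyme markers was 131 and 183 CPM in bRG and 227 and 1565 CPM in aRG, and TWIST1, the mesenchymal transcription factor among them, was at or below 1.59 CPM in all 4. COL1A1, a collagen of fibrils, was at 102 and 113 CPM in bRG and 155 and 940 CPM in aRG. The sum of 6 choroid plexus markers was 57.6 and 69.2 CPM in bRG and 937 and 3251 CPM in aRG. TTR, the transthyretin secreted by choroid plexus, made up most of it, at 36.0 and 48.4 CPM in bRG and 818 and 3088 CPM in aRG. In bRG, TTR fell by 5.53 on the log2 scale (SE 0.56, edgeR adjusted p = 0.0138, lower in 2 of 2 libraries), a call lost with a filter of 5 CPM (adjusted p = 0.114) and in a fit of the bRG and aRG libraries alone (adjusted p = 0.786). Without aRG replicate 2 the median of the matrix list was −0.23 and that of the mesenchymal, vascular and immune list −0.22, against −0.93 with it. The part of these cells in the matrix result was not tested.

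Cell shape and junction genes leaned the same way by less. Of 77 regulators of actin, membranes and cell shape at 10 CPM, 30 (39.0%) were lower and 5 higher in bRG. Of all genes 19% were lower and 11.3% higher. The median of the list was −0.25 over 82 tested members and −0.10 without aRG replicate 2. MYL12A, a light chain of non-muscle myosin, was at 14.2 and 15.0 CPM in bRG and 29.2 and 30.2 CPM in aRG. RDX, which links actin to the membrane, was at 132 and 131 CPM in bRG and 182 and 190 CPM in aRG. In both genes the replicates of a population lay closer together than the populations did. Higher in bRG were CDC42EP3, an effector of the GTPase CDC42, at 33.0 and 40.5 CPM in bRG and 22.5 and 29.0 CPM in aRG, and TPM3, a tropomyosin, at 112 and 132 CPM in bRG and 97.0 and 101 CPM in aRG. ZYX, of focal adhesions, was at 143 and 152 CPM in bRG and 121 and 138 CPM in aRG and overlaps FAM131B.

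Of 42 listed junction and polarity genes 14 (33.3%) were lower in bRG and 0 higher, beside 19% and 11.3% of all genes. The median of the list was −0.22 over 58 tested members and −0.12 without aRG replicate 2. The tight junction gene CGN, described above as highest in bRG, is not on this list. GJA1, the gap junction protein connexin 43, was at 8.06 and 5.13 CPM in bRG and 20.0 and 28.6 CPM in aRG, and no N or bIP library passed 1.86 CPM. CRB1, of the apical Crumbs complex, was at 64.4 and 60.6 CPM in bRG and 98.1 and 108 CPM in aRG, but bIP held as much as aRG, at 102 and 114 CPM. CRB1 overlaps the protein-coding locus LOC104004283. CLDN5, a claudin also known from endothelium, was at 3.40 and 3.27 CPM in bRG and 8.41 and 16.9 CPM in aRG. The summed endothelial markers were not lower in bRG, at 19.9 and 12.6 CPM in bRG and 12.5 and 7.30 CPM in aRG. CLDN5 is also on the choroid plexus list. The summed choroid plexus markers were lower in bRG, at 57.6 and 69.2 CPM, than in aRG, at 937 and 3251 CPM. The part of such cells in the CLDN5 difference was not tested.

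Transcripts of radial glia identity were lower in bRG or overlapped. Among genes shared by all radial glia 8 of 20 (40%) were lower and 0 higher, with a median of −0.39. VIM, the intermediate filament vimentin, was at 774 and 668 CPM in bRG and 1121 and 1288 CPM in aRG. Among genes listed as apical 9 of 23 were lower (median −0.33) and among genes listed as basal 9 of 29 (31.0%) were lower (median −0.17), with 0 higher in either, beside 19% of all genes lower and 11.3% higher. Of the basal genes 5 were lower with library totals, and 5 of the 9 kept their order in the counts on the human genome. CRYAB, a small heat shock protein in both lists, was at 13.7 and 11.4 CPM in bRG and 28.5 and 25.6 CPM in aRG. It overlaps HSPB2 and C11H11orf52. SALL1, a transcription factor of the basal list, was at 154 and 120 CPM in bRG and 188 and 194 CPM in aRG. The median of the basal list ranged from −0.43 to −0.09 when single libraries were left out. Of 20 intermediate progenitor genes 8 were lower and 2 higher. NEUROG1, a proneural factor, was at 5.63 and 10.6 CPM in bRG and 17.8 and 21.9 CPM in aRG. EOMES, the defining factor of intermediate progenitors, overlapped at 49.0 and 122 CPM in bRG and 90.3 and 184 CPM in aRG.

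**Figure D4:**
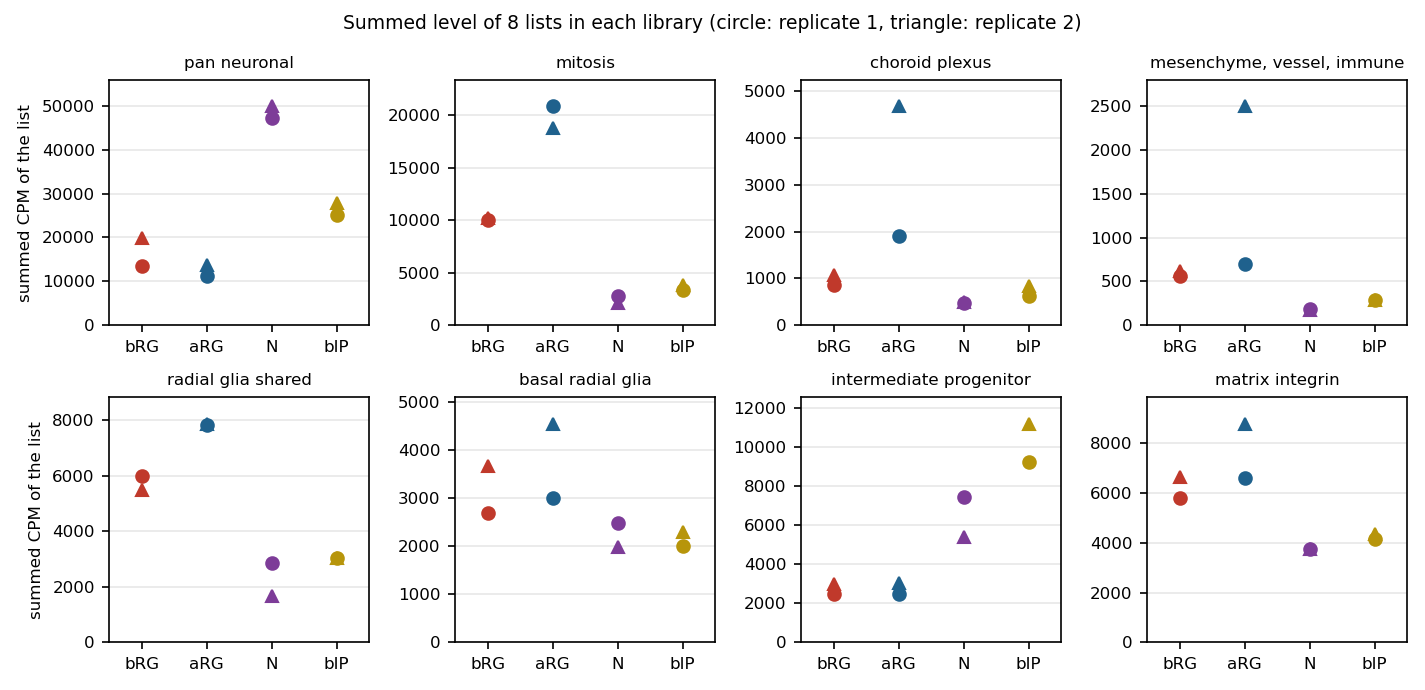
Summed CPM of 8 gene lists (vertical axes from 0) in each library of bRG, aRG, N and bIP (circles replicate 1, triangles replicate 2). Both bRG libraries lie between aRG and the committed cells for mitosis and shared radial glia genes, and aRG replicate 2 stands alone for the choroid plexus list and for the mesenchymal, vascular and immune list.

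Notch pathway genes were more often lower than higher in bRG. Of 24 at 10 CPM 11 (45.8%) were lower and 3 (12.5%) higher in bRG, beside 19% and 11.3% of all genes, with a median of −0.14. With library totals 9 were lower and 5 higher. HES1, the effector that keeps progenitors undifferentiated, was at 172 and 111 CPM in bRG and 373 and 226 CPM in aRG, and HEYL, another effector, at 9.71 and 3.49 CPM in bRG and 12.8 and 19.3 CPM in aRG. The ligand DLL1 was at 73.3 and 49.4 CPM in bRG and 120 and 112 CPM in aRG. These 3 were lower in both bRG libraries. The ligand JAG2 was higher, at 48.2 and 90.5 CPM in bRG and 30.7 and 30.1 CPM in aRG, as were DLL3, a Delta-like protein that dampens signalling within the cell, at 17.9 and 37.6 CPM in bRG and 11.5 and 16.4 CPM in aRG, and NUMBL, a relative of the Notch inhibitor NUMB, at 51.0 and 47.3 CPM in bRG and 39.6 and 33.9 CPM in aRG. NUMBL overlaps COQ8B. JAG2 was called higher and DLL3 lower in N than in bIP (edgeR adjusted p = 0.0244 and 0.0140).

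Among Wnt genes 13 of 28 (46.4%) were lower and 1 higher (median −0.21), beside 19% and 11.3% of all genes. With library totals 9 were lower. FZD7, a receptor, was at 92.5 and 80.5 CPM in bRG and 127 and 116 CPM in aRG, and ZNRF3, which removes such receptors from the membrane, at 66.8 and 49.9 CPM in bRG and 80.4 and 102 CPM in aRG. Receptor and its negative regulator thus stood in the same order. The ligand WNT2B was higher, at 30.0 and 31.4 CPM in bRG and 22.5 and 24.2 CPM in aRG. Among genes of the fibroblast growth factor, BMP, TGF-beta and hedgehog pathways 17 of 41 (41.5%) were lower and 2 higher (median −0.22). ID1 and ID3, targets of BMP signalling, were at 14.6 and 4.53 CPM and at 13.2 and 19.3 CPM in bRG, against 41.8 and 26.7 CPM and 36.8 and 57.8 CPM in aRG. GLI2, a transcription factor of the hedgehog pathway, was at 73.1 and 84.1 CPM in bRG and 112 and 119 CPM in aRG.

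Receptors and ligands of other families followed both orders. EFNA3 and EFNB3, ephrin ligands, were higher, at 34.4 and 28.3 CPM and at 94.0 and 109 CPM in bRG, against 17.8 and 18.9 CPM and 76.8 and 86.8 CPM in aRG. The ephrin receptor EPHB3 was lower, at 105 and 88.7 CPM in bRG and 137 and 120 CPM in aRG. The growth factor midkine, MDK, was at 349 and 218 CPM in bRG and 399 and 460 CPM in aRG, and overlaps CHRM4. DLK1, an imprinted Notch-related membrane protein, was at 61.4 and 40.4 CPM in bRG and 78.0 and 148 CPM in aRG, and PRTG, a receptor of early neuroepithelium, at 20.5 and 9.06 CPM in bRG and 38.9 and 42.9 CPM in aRG. Over the list of growth factor and survival genes 9 of 39 were lower (23.1%) and 2 higher (5.13%), beside 19% and 11.3% of all genes.

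Division and metabolism genes differed by group. Of 132 mitosis genes 119 (90.2%) were lower in bRG and 0 higher, beside 19% and 11.3% of all genes. Of 46 DNA replication genes 11 (23.9%) were lower, near the share of all genes, and 2 were higher. With library totals 9 of them were lower and 3 higher. PIF1, a helicase of the mitosis list, was at 191 and 256 CPM in bRG and 629 and 706 CPM in aRG. From the DNA replication list RRM2, a ribonucleotide reductase subunit, was at 178 and 230 CPM in bRG and 286 and 288 CPM in aRG. Respiratory chain genes had 17 of 38 (44.7%) lower and 1 higher (median −0.25). With library totals 10 of them were lower, and the lower genes among all genes also went from 2165 to 1570. COX6B1 and COX6C, subunits of cytochrome c oxidase, were at 87.6 and 85.1 CPM and at 48.7 and 52.8 CPM in bRG, against 110 and 124 CPM and 64.8 and 76.1 CPM in aRG. Hypoxia and glycolysis genes had 1 of 32 higher and 0 lower, under the share of all genes in both directions, and their medians within libraries numbered 1 and 2 were 0.26 and −0.25. Cholesterol and fatty acid genes had 4 of 32 higher and 2 lower with TMM, 6 and 0 with library totals and 3 and 3 with DESeq2 size factors. MVD, of cholesterol synthesis, was at 518 and 479 CPM in bRG and 363 and 390 CPM in aRG.

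Stress genes gave no single order. Of 30 genes of the unfolded protein and integrated stress responses 4 were higher and 4 lower with TMM, 8 and 3 with library totals, and 2 and 5 with DESeq2 size factors. CHAC1, a target of the integrated stress response, was at 32.9 and 26.7 CPM in bRG and 15.4 and 18.4 CPM in aRG, while the chaperone HSP90B1 was at 873 and 586 CPM in bRG and 1174 and 1001 CPM in aRG. Of 18 heat shock genes 0 were higher and 4 lower with TMM, and 4 and 4 with library totals. Of 21 immediate early genes 3 (14.3%) were higher and 5 (23.8%) lower, beside 11.3% and 19% of all genes. NR4A3 was at 9.81 and 11.4 CPM in bRG and 5.07 and 3.24 CPM in aRG and was called higher in N, at 66.2 and 43.7 CPM, than in bIP, at 6.09 and 2.67 CPM (edgeR adjusted p = 0.00205). NR4A3 overlaps the protein-coding locus LOC104007963. IER5 was at 25.9 and 15.9 CPM in bRG and 40.5 and 32.9 CPM in aRG.

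**Figure D5:**
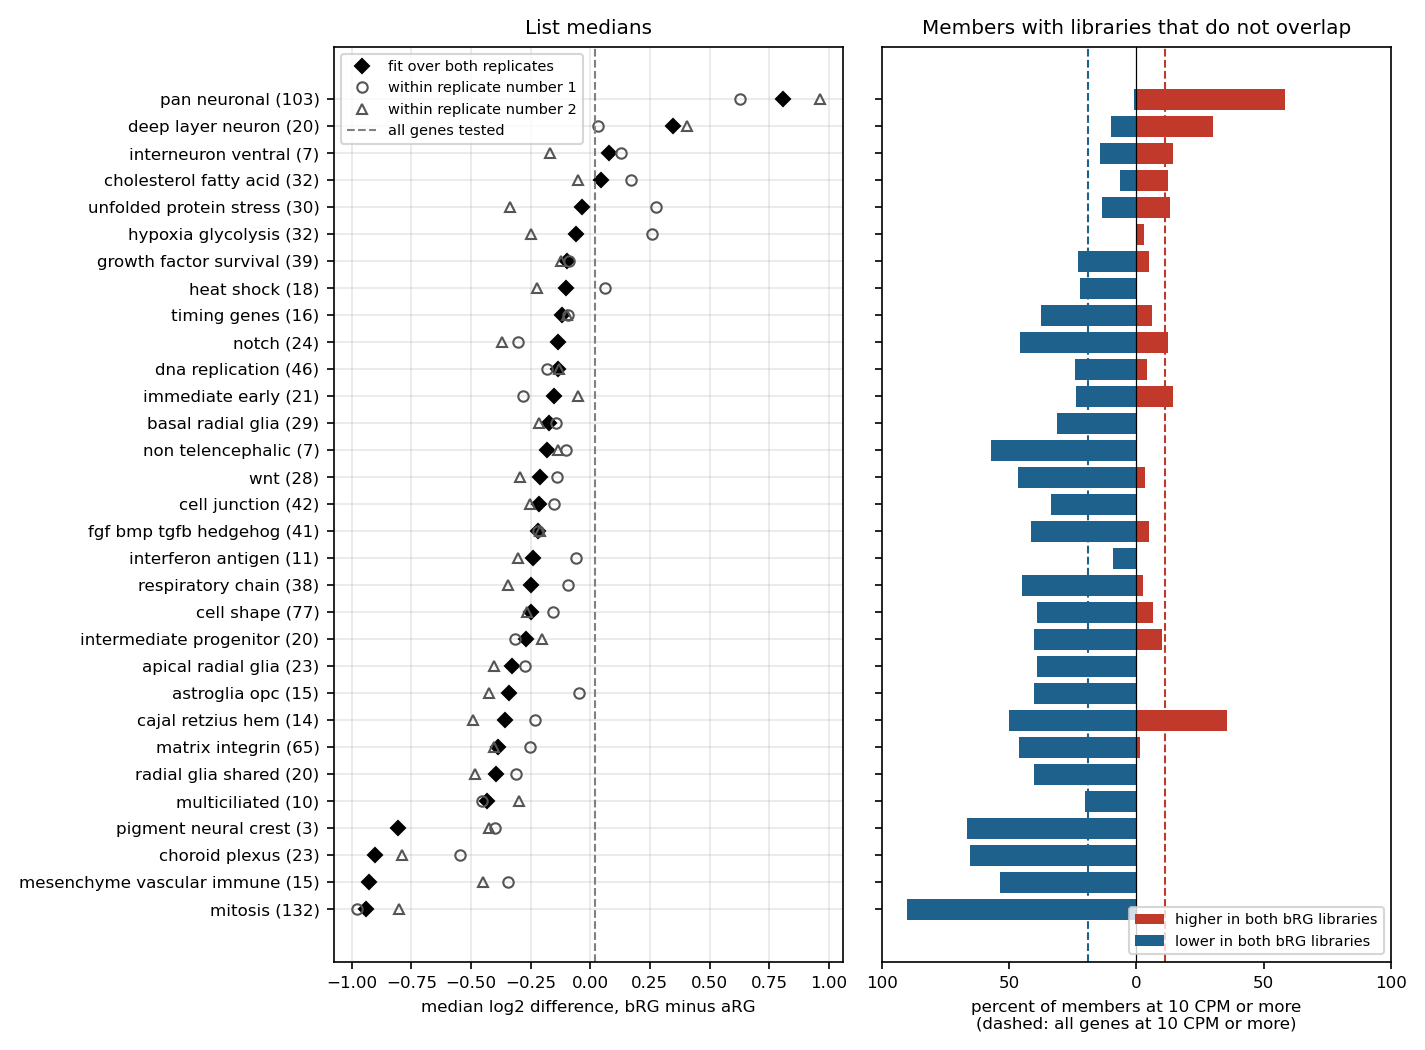
Left, the median log2 difference, bRG minus aRG, of each of 31 gene lists over both replicates (diamonds) and within each replicate number (circles and triangles), with the median of all tested genes as a dashed line (0.02). Right, the percent of list members at 10 CPM or more that were higher (red) or lower (blue) in both bRG libraries, with the percent of all genes as dashed lines (11.3% and 19%); the mitosis list reaches 90.2% lower and the general neuronal list 58.3% higher.

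Markers of other cell types were low in both populations apart from those above. The summed levels of 5 interneuron markers were 9.71 and 6.04 CPM in bRG and 5.26 and 4.98 CPM in aRG, of 3 microglia markers 21.0 and 36.9 CPM in bRG and 25.65 and 23.97 CPM in aRG, and of 4 pigment cell markers 7.58 and 7.17 CPM in bRG and 16.7 and 20.2 CPM in aRG. Of the microglia markers AIF1 was listed at 0 in all libraries. In reads on the chimpanzee genome, totals were 28800481 and 28865049 counts in bRG and 24649971 and 33245892 in aRG, and the nuclear RNA MALAT1 took 7.33% and 4.90% of counts in bRG and 7.52% and 3.61% in aRG. Whether the replicates of a population stem from separate cultures is not given in the labels, so the p-values reflect how far these libraries differ, which could be technical.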

How the data were processed

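The authors deposited 2 tables of raw read counts for gene symbols, made on panTro6 (chimpanzee) and on hg38 (human) with STAR, per the submitters' processing notes. How reads were assigned to genes, and with which annotation, is not given in the sources used here. Per the labels' protocols the libraries were made in a Smart-seq2 type workflow with 12 to 17 PCR cycles and a transposome, which marks no strand, and no molecular identifiers are named, so counts include PCR copies. On panTro6 a count of 2 (21576 values) was more frequent than a count of 1 (16443), so counts were also tested halved. A row with no gene name, 0.00545% to 0.00771% of each library, was left out. The 4 bRG and aRG libraries held 24649971 to 33245892 counts.

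The chimpanzee counts of all 8 libraries were filtered with filterByExpr (35382 genes), scaled by TMM and fitted with edgeR 4.0.16 in R 4.3.3 (glmQLFit and glmQLFTest, 1 coefficient per population, 4 residual degrees of freedom, common biological coefficient of variation 0.629). Tests were two-sided, adjusted by Benjamini-Hochberg over all genes, with a threshold of 0.05, and SE were derived from the F statistic. DESeq2 1.42.0 was an alternative. The code was checked on simulated counts. Levels are TMM-scaled CPM per library, replicate 1 before replicate 2, and are compared within a gene only. Medians within a replicate number are of log2 ratios with 1 CPM added, and list medians cover all tested members.

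Members were set by the order of the 4 libraries. The named genes were the 12 in each direction with the largest gap, that is log2 of the lowest library of the higher population over the highest of the lower with 1 CPM added, up to 3 members a direction of each list by the same gap, up to 8 genes highest in bRG or aRG, 6 identity genes, genes edgeR called and the nearest genes to the 10 CPM limit. The 12 in each direction and the genes highest in bRG or aRG were taken outside the mitosis, DNA replication, general neuronal and choroid plexus lists. The 12 also kept their order on hg38, where no CPM minimum was set. CELF6 stood there at only 2.80 and 2.42 CPM in bRG and 0.503 and 0.179 CPM in aRG. On panTro6 it was at 33.8 and 58.1 CPM in bRG and 11.1 and 15.05 CPM in aRG. Members and the 31 lists were chosen with earlier results of these data known. Overlapping loci come from a RefSeq table on the assembly NHGRI_mPanTro3-v2.0, which matched 139 of 140 named genes and gave 21 with an overlapping protein-coding gene. No sequences are shown, and genome coordinates were not used here. Some genes that the naming rule picked are not reported here.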

Additional observations from a re-analysis of the deposited data

How the results depend on the processing

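For bRG against aRG edgeR called 1 gene, and 1 also with DESeq2 size factors, halved counts, the hg38 counts and robust estimation. The count was 0 with a filter of 5 CPM and in a fit of the bRG and aRG libraries alone, 118 with DESeq2, 215 with no low-count filter, and 1 to 85 when single libraries were left out. The replicate number as a block gave 39, and 310 in the bRG and aRG libraries alone, an alternative chosen after seeing the data. Labels do not say what a replicate number shares; same-numbered bRG and aRG libraries deviated from their means with a correlation of 0.104 over 35382 genes, the highest of 6 population pairs (0.0462 to 0.104), and of 0.601 over 11200 genes at 10 CPM, where the other 5 pairs had 0.29 to 0.389. For N against bIP the 900 calls were 2501 with DESeq2, 2264 with no filter, 2165 with the replicate block and 415 to 1150 with libraries left out. Of the genes higher in bRG, 50 to 336 were called higher in N over all alternatives, and of those lower in bRG 145 to 369 were called lower, choices made after seeing the data. With 1 library left out, fewer have to be ordered, and the non-overlapping genes were 2704 to 3558 higher and 3892 to 4962 lower. The genes highest in bRG were 320 with library totals, 181 from 5 CPM, 64 from 20 CPM and 258 to 1005 with libraries left out. Over 1959 settings of 140 named genes 1821 kept direction and side of the threshold, 134 passed it newly, and 2 no longer passed, both TTR. The sign turned for POLA2 on hg38 (−0.040) and for BCL11B without bRG replicate 2 (−0.012, with a highest value of 1.01 when single libraries were left out). Of 434 list medians 17 changed sign. Of 135 named genes with a set order, 130 kept it with library totals and 132 with DESeq2 size factors. The causes of these changes were not tested. A count of 3 in a bRG or aRG library was worth 0.0902 to 0.122 CPM, under the 10 CPM minimum.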

Other observations

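Some radial glia genes are listed at 0 in all 8 libraries on the chimpanzee genome but have counts on the human one. This held for 1052 symbols, of which 294 averaged at least 10 CPM in bRG or aRG on hg38. Of the 294, 35 were higher in both bRG libraries and 44 were lower, and none of these enters the counts above. On the chimpanzee genome 11.3% of the 11422 genes at 10 CPM were higher and 19% lower. The counts are therefore not read as a result about the 294. The genes named here were chosen after their hg38 values were seen. TFR2, a transferrin receptor, was at 41.6 and 55.3 CPM in bRG and 15.5 and 17.2 CPM in aRG. NEFM, a neurofilament subunit, was at 23.2 and 33.5 CPM in bRG and 12.8 and 17.4 CPM in aRG, and ACTL6B, the neuronal subunit of the BAF chromatin complex, at 21.5 and 68.4 CPM in bRG and 9.06 and 15.9 CPM in aRG. Lower in bRG were COL6A2, a collagen chain, at 33.2 and 31.2 CPM in bRG and 49.2 and 77.4 CPM in aRG, and TACC3, a protein of the mitotic spindle, at 158 and 219 CPM in bRG and 378 and 387 CPM in aRG. PTBP1, a splicing repressor of progenitors, was at 209 and 199 CPM in bRG and 238 and 240.3 CPM in aRG. The Notch effector HES5 overlapped, at 92.2 and 14.1 CPM in bRG and 107 and 33.4 CPM in aRG, and so did the cyclin CCND1, at 42.80 and 18.96 CPM in bRG and 73.1 and 35.0 CPM in aRG.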
